A study of Macaca fascicularis with 2 samples.

Results

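Of the 28175 genes in the deposited tables, 9 make up the group described here, the genes by which a muscle fibre takes up, stores and buffers calcium. They are the calcium pumps ATP2A1 and ATP2A2, the pump inhibitor SLN, the luminal store proteins CASQ1, CASQ2, HRC and SRL, the junctional protein TRDN and the cytosolic buffer PVALB. They were chosen by name for this role, with earlier results of these data known, and all 9 were found. The tissue is gastrocnemius, a calf muscle, of Macaca fascicularis, the cynomolgus macaque. The non-lean group, fed a high fat diet, and the lean group, fed chow, have 1 RNA sequencing library each. The labels give no age and do not say how many animals stand behind a library. The comparison asks which genes are expressed differently in the muscle of obese and lean animals.

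A fibre contracts when calcium leaves the sarcoplasmic reticulum, the calcium store that surrounds each bundle of filaments, and relaxes when pumps of the SERCA family return it. ATP2A1 encodes the SERCA pump of fast fibres, while ATP2A2 encodes the pump of slow fibres and of heart, and forms of it serve most other cell types. Inside the store, calsequestrin binds the calcium: CASQ1 is the form of fast and slow skeletal fibres, CASQ2 the form of heart and, to a lesser degree, of slow fibres. Triadin anchors calsequestrin to the release channel, small membrane peptides such as sarcolipin tune the pump, and parvalbumin takes up calcium in the cytosol.

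The non-lean library held 12731974 counts and the lean library 15983348. With 1 library a group there was no spread between replicates and no test was possible, so every difference below lies between these 2 libraries. Brackets hold 95% counting intervals, which cover counting error only and treat estimated counts as reads, and which are narrow for abundant genes. Levels are given as CPM, the count divided by the scaled size of its library in units of 1e6 counts. Gene lengths were not used, so levels are compared between libraries and not between genes. Markers of skeletal fibres were abundant in both libraries, with a summed level of 150525 CPM in the non-lean and 202163 CPM in the lean library over 8 genes. Of 9 heart genes, only NPPB was at 0 in both libraries. The 9 summed to 207 CPM in the non-lean and 177 CPM in the lean library. Most of this came from MYH6, at 200 CPM in the non-lean and 170 CPM in the lean library.

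All 9 members passed the filter of a mean level of 1 CPM, in company with 13707 tested genes in all. None of the 9 reached 2-fold higher in the non-lean library with an interval above 0, which 4.91% of tested genes did. CASQ2 and PVALB, 2 of the 9, were at least 2-fold lower with an interval below 0, where 7.16% of tested genes were. Intervals of any size lay above 0 for 3 members (ATP2A2, TRDN and HRC), against 25.8% of tested genes, and below 0 for 6, against 28.8% of tested genes. As intervals narrow with depth, these last 2 shares cannot be read apart from the high counts of the members. The same shares and the same limit stand beside the interval counts of the lists below. Log2 ratios are given as non-lean over lean. Their median was -0.40 over the members and -0.01 over all tested genes, whose quartiles were -0.39 and 0.34. The group took 2.49% of all counts in the non-lean library [2.49, 2.50] and 2.83% in the lean library [2.82, 2.83]. Without ATP2A1, the other members took 0.971% in the non-lean and 0.921% in the lean library.

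Every ratio between the libraries depends on their scaling. Scaling by total counts alone moves all log2 ratios up by 0.14, and a scaling to 9 shared sarcomere genes moves them up by 0.38. Genes called higher were 40.7% of all calls in the main scaling, 56.0% with total counts and 78.7% with sarcomere scaling. Differences between 2 members do not change with the scaling.

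**Figure D1:**
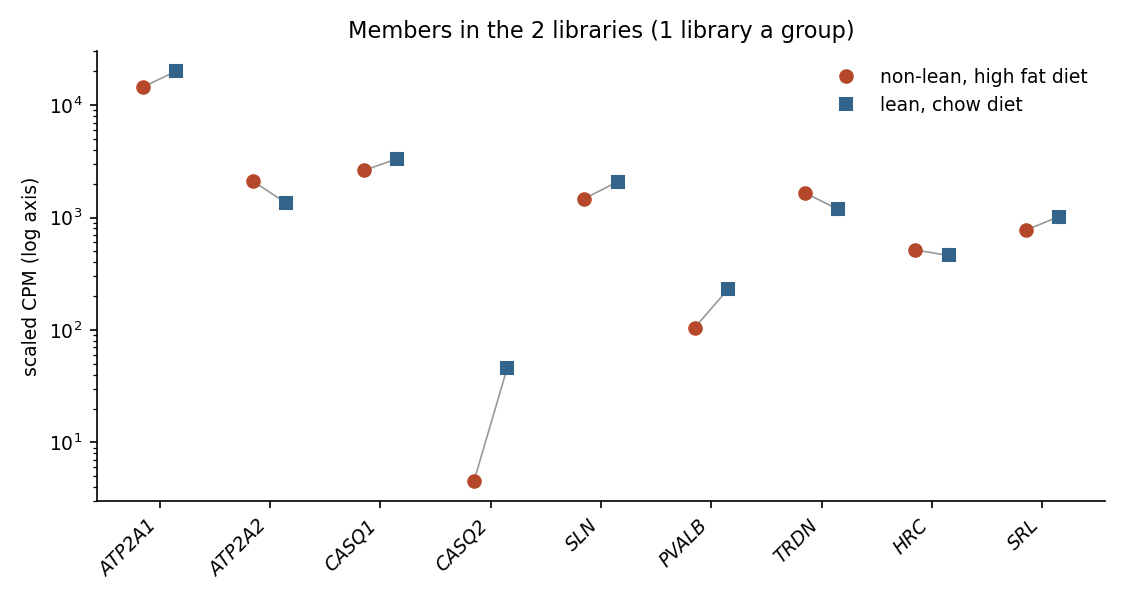
Scaled level (CPM, log axis) of each member in the non-lean library (circles) and the lean library (squares), 1 library a group, with a line joining the pair. CASQ2 has the steepest line, with 4.56 CPM in the non-lean and 45.8 CPM in the lean library, and levels of different genes are not corrected for length.

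The 2 calcium pumps went opposite ways. ATP2A1, the fast fibre pump, had 193961 counts in the non-lean and 304503 in the lean library, which are 14505 and 20009 CPM. Its log2 ratio was -0.46 [-0.47, -0.46], which is 1.38-fold lower. By count, which is not corrected for gene length, it ranked 6 among all genes in the non-lean library and 5 in the lean library. ATP2A2, the slow fibre pump, had 28020 counts in the non-lean and 20375 in the lean library, which are 2095 and 1339 CPM. Its log2 ratio was 0.65 [0.62, 0.67], which is 1.57-fold higher, and 88.3% of tested genes lay below it. Neither pump reached a 2-fold difference, although ATP2A2 did with sarcomere scaling, at 1.02. In that scaling ATP2A1 was only slightly lower, at -0.09. In bulk muscle, a smaller share of fast fibres and less RNA of a gene per fibre cannot be told apart.

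The balance between the pumps can be read inside each library, with no scaling. ATP2A2 made up 12.6% of the counts of the pump family in the non-lean library [12.5, 12.8] and 6.27% in the lean library [6.19, 6.35]. ATP2A1 made up 87.4% in the non-lean and 93.7% in the lean library. The third pump gene, ATP2A3, known from blood and epithelial cells, had 45 counts in the non-lean and 76 in the lean library, 0.0203% and 0.0234% of the family. These are shares of counts, not of molecules, and the estimation may divide reads among pump genes where their sequences are alike.

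**Figure D2:**
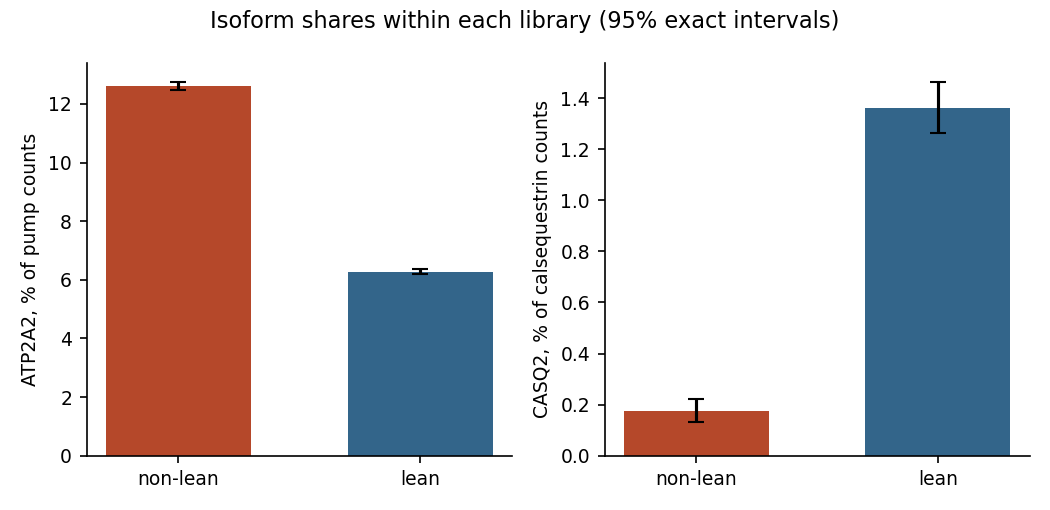
Share (%) of ATP2A2 in the counts of the 3 pump genes, and of CASQ2 in the counts of the 2 calsequestrin genes, in the non-lean (left bar) and lean (right bar) library, with 95% exact counting intervals. ATP2A2 stands at 12.6% in the non-lean and 6.27% in the lean library, and CASQ2 at 0.174% in the non-lean and 1.36% in the lean library.

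Sarcolipin, SLN, a short membrane peptide that inhibits the pump and uncouples calcium transport from ATP use, had 19745 counts in the non-lean and 31610 in the lean library. Its level was 1477 CPM in the non-lean and 2077 CPM in the lean library, 1.41-fold lower, with a log2 ratio of -0.49 [-0.52, -0.47]. SLN and ATP2A1 were thus lower by similar amounts, SLN by slightly more. With sarcomere scaling both were close to level, SLN at -0.11 and ATP2A1 at -0.09. For every 100 counts of ATP2A1 there were 10.2 counts of SLN in the non-lean and 10.4 in the lean library, a log2 difference of -0.03 [-0.06, -0.00].

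Other pump peptides did not share that direction. STRIT1 encodes DWORF, a peptide known in mouse to raise pump activity by displacing its inhibitors. It had 5006 counts in the non-lean and 2249 in the lean library and was 2.53-fold higher, at 1.34 [1.27, 1.41]. The files list it under a placeholder symbol, and its name was taken through its gene number. Phospholamban, PLN, the pump inhibitor of heart and slow fibres, had 1016 counts in the non-lean and 1132 in the lean library, and its interval held 0, at 0.03 [-0.09, 0.15]. Myoregulin, MRLN, a pump inhibitor of skeletal fibres in mouse, had 56 and 53 counts in the non-lean and lean libraries, at 0.27 [-0.30, 0.84].

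The calsequestrins were both lower in the non-lean library, by very different amounts. CASQ1, the main calcium store protein of skeletal muscle, had 35072 counts in the non-lean and 50547 in the lean library, which are 2623 and 3321 CPM. Its log2 ratio was -0.34 [-0.36, -0.32], 1.27-fold lower, a direction that turned to 0.04 with sarcomere scaling. CASQ2 had 61 counts in the non-lean and 697 in the lean library, which are 4.56 and 45.8 CPM. Its log2 ratio was -3.32 [-3.73, -2.95], which is 9.97-fold lower.

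CASQ2 stood far from the other members and from most genes. Only 0.175% of tested genes had a lower ratio. Among the 3912 tested genes outside the group within 2-fold of its mean level, leaving out those with placeholder symbols, 1 was lower. The CASQ2 share of calsequestrin counts was 0.174% in the non-lean library [0.133, 0.223] and 1.36% in the lean library [1.26, 1.46]. CASQ2 has 1 transcript model in the files, so no division among models of its own enters this value. Its estimated count in the lean library, 697.43, was not whole, and division of reads with other genes was not tested. The tested genes that flank it in the reference gene order were SLC22A15, with 14 counts in the non-lean and 16 in the lean library, and VANGL1, with 30 and 29. Their log2 ratios were 0.00 and 0.23, on these few counts, and a difference of the region was not tested.

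CASQ2 is often counted among slow fibre genes and is the calsequestrin of heart, so both kinds of gene are given beside it. Of 16 tested slow fibre genes outside the group, 12 had intervals above 0 and 1, ANKRD2, below, beside 25.8% and 28.8% of all tested genes. MYH6, the heart myosin, had 2668 counts in the non-lean and 2583 in the lean library, at 0.23 [0.15, 0.31], though its reads can be shared with the near-identical slow myosin MYH7, which was not matched here. RYR2, the heart release channel, had 37 counts in the non-lean and 34 in the lean library, with an interval that held 0, as did that of MYBPC3, a heart filament protein, at -0.26 [-0.95, 0.42]. These were the 3 heart genes that passed the filter. Below the filter, the heart troponin TNNT2 had 2 counts in the non-lean and 20 in the lean library, at -2.85 [-6.28, -1.09], and TNNI3 had 19 counts in the non-lean and 3 in the lean library, at 2.66 [1.09, 5.25].

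Junctional and luminal partners of calsequestrin went both ways. Triadin, TRDN, which ties calsequestrin to the release channel, had 22114 counts in the non-lean and 17964 in the lean library, which are 1654 and 1180.4 CPM. It was 1.40-fold higher, at 0.49 [0.46, 0.51], above 82.2% of tested genes. The histidine-rich calcium-binding protein HRC, a low-affinity store protein of the lumen, had 6881 counts in the non-lean and 6997 in the lean library. Its level was 515 CPM in the non-lean and 459.8 CPM in the lean library, 1.12-fold higher at 0.16 [0.11, 0.21], inside the quartiles of all tested genes. Sarcalumenin, SRL, a luminal glycoprotein that binds calcium and stabilises the pump in mouse muscle, had 10335 counts in the non-lean and 15516 in the lean library. Its level was 773 CPM in the non-lean and 1019.6 CPM in the lean library, 1.32-fold lower at -0.40 [-0.44, -0.36], and with sarcomere scaling -0.02.

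Parvalbumin, PVALB, had 1406 counts in the non-lean and 3492 in the lean library, which are 105 and 229 CPM. It was 2.18-fold lower, at -1.13 [-1.22, -1.04], with 5.62% of tested genes further down. With total counts its ratio was -0.98 and with sarcomere scaling -0.75, both short of 2-fold. MYH4, a fast fibre myosin, was lower as well, with 3411 counts in the non-lean and 9808 in the lean library, at -1.34 [-1.39, -1.28]. A link between the PVALB and MYH4 values was not tested. MYH4 was the lowest of 19 fast fibre genes, whose median was -0.14, with 3 intervals above 0 and 15 below.

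**Figure D3:**
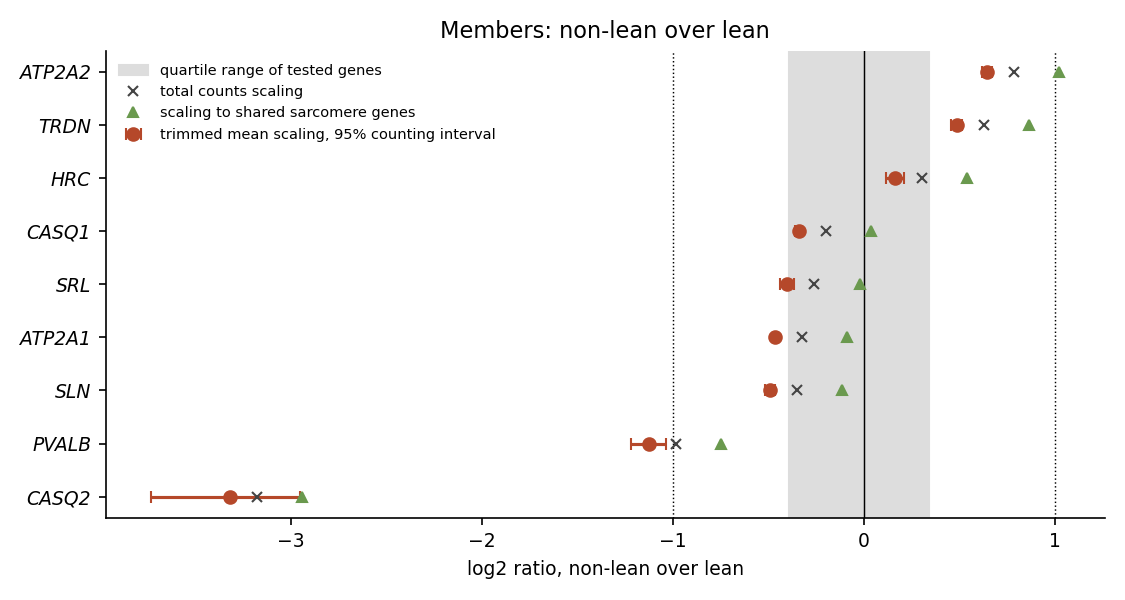
Log2 ratio (non-lean over lean) of each member, the highest at the top, with 95% counting intervals (circles and bars), and the same ratio with total counts (crosses) and sarcomere scaling (triangles). The shaded band spans the quartiles of all tested genes, -0.39 to 0.34, and dotted lines mark 2-fold: CASQ2 at -3.32 stays left of the line in each scaling shown, PVALB at -1.13 does so only in the main one, and CASQ1 lies right of 0 with sarcomere scaling.

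Set against ATP2A1 inside each library, the members were of 3 kinds. SLN, SRL and CASQ1 stood close to the fast pump. There were 5.33 counts of SRL per 100 of ATP2A1 in the non-lean and 5.10 in the lean library, and 18.1 counts of CASQ1 in the non-lean and 16.6 in the lean library. The log2 differences for SRL and CASQ1 were 0.06 [0.03, 0.10] and 0.12 [0.10, 0.14]. ATP2A2, TRDN and HRC were higher relative to it. TRDN had 11.4 counts per 100 of ATP2A1 in the non-lean and 5.90 in the lean library, a log2 difference of 0.95 [0.92, 0.98], and HRC had 3.55 and 2.30 in the non-lean and lean libraries, a log2 difference of 0.63 [0.58, 0.68]. For ATP2A2 the log2 difference was 1.11 [1.08, 1.14]. PVALB and CASQ2 were lower even relative to ATP2A1, at -0.66 [-0.75, -0.57] and -2.86 [-3.24, -2.49]. These within-library values need no scaling, and they order the members without comparing their lengths.

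TRDN and calsequestrin, which bind each other in the lumen, differed from each other. There were 63.1 counts of TRDN per 100 of CASQ1 in the non-lean library and 35.5 in the lean library, a log2 difference of 0.83 [0.79, 0.86]. TRDN and ATP2A2 were closer, with 127 counts of ATP2A2 per 100 of TRDN in the non-lean and 113 in the lean library, a log2 difference of 0.16 [0.12, 0.20].

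Transcript models mattered for 3 members. HRC has 4 models in the files, of which 3 had counts. The model with the largest summed count took 66.0% of HRC counts in the non-lean and 34.8% in the lean library, and the next model took 28.8% in the non-lean and 58.5% in the lean library. The leading HRC model alone was at 1.09 and the next at -0.86, although the whole gene was at 0.16. SRL has 2 models, and the lesser one had 297 estimated counts in the non-lean and 1577 in the lean library, 2.87% and 10.2% of the gene. The leading ATP2A2 model took 93.6% of the gene in the non-lean and 90.3% in the lean library. ATP2A1, CASQ1, CASQ2, PVALB and TRDN each have 1 model in the files, so heart and skeletal forms of triadin cannot be told apart there. The division of reads among models is an estimate, and its part in the HRC shift was not tested.

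**Figure D4:**
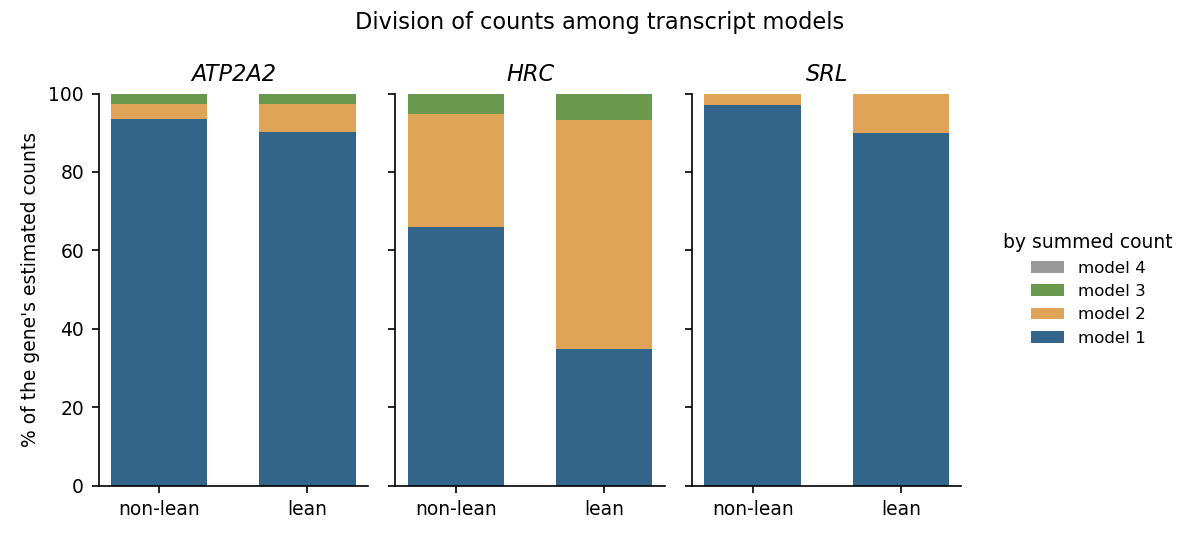
Share (%) of the estimated counts of ATP2A2, HRC and SRL taken by each transcript model, numbered by summed count, in the non-lean (left bar) and lean (right bar) library. In HRC the first model holds 66.0% in the non-lean and 34.8% in the lean library, while one model dominates ATP2A2 and SRL in both.

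Other calcium genes of the reticulum had no common direction. Of 20 tested, 2 were called higher at 2-fold and 1 lower, beside 4.91% and 7.16% of all tested genes. Intervals lay above 0 for 8 and below 0 for 8, and the median was 0.05. S100A1, a calcium sensor that binds the pump and the release channel, was furthest up, with 6929 counts in the non-lean and 353 in the lean library, 22.3-fold higher at 4.48 [4.33, 4.64]. STRIT1, given above, was the other. RCN1, a calcium-binding protein of the lumen, was lowest at -1.61 [-1.90, -1.33], with 131 counts in the non-lean and 456 in the lean library. ITPR1, a release channel opened by inositol trisphosphate, was next at -0.79. TMEM38A, a potassium channel that balances charge during release, was the most abundant at 0.07 [0.04, 0.10], and the luminal chaperone CALR was at 0.24.

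Genes of calcium release had more intervals below 0 than above, but the sign of their median changed with the scaling. Of 16 tested, 3 intervals lay above 0 and 9 below, beside 25.8% and 28.8% of tested genes. None was called at 2-fold in either direction, beside 12.1% of tested genes. The median was -0.11 in the main scaling, 0.03 with total counts and 0.27 with sarcomere scaling. RYR1, the release channel of skeletal muscle, had 16398 counts in the non-lean and 37044 in the lean library, at -0.99 [-1.02, -0.96]. JPH1, which holds the reticulum to the transverse tubule, was at -0.78. The store-operated entry channel ORAI1 and the channel subunit CACNA2D1 were highest, at 0.67 and 0.43. TRDN thus stood at 0.49 while its partner RYR1 stood at -0.99.

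Calcium transport at the plasma membrane and mitochondria had a median of -0.27, with 7 of 18 intervals above 0 and 9 below, but the median was -0.02 over genes with a mean of at least 5 CPM, -0.13 with total counts and 0.11 with sarcomere scaling. MCUR1 and SMDT1, regulators of the mitochondrial uniporter, were highest at 0.74 and 0.69. MCUB, a subunit that dampens it, was lowest at -1.28 [-2.71, -0.13] on 8 counts in the non-lean and 23 in the lean library, followed by the exchanger SLC8A1 at -0.96 [-1.79, -0.20]. The abundant outer membrane channel VDAC1 was at 0.32. Cytosolic calcium sensors and their targets had a median of -0.29, with 15 of 19 intervals below 0 and 2 above, and a median of 0.09 with sarcomere scaling. The kinase CAMK2D and the transcription factor NFATC2 were the lowest at -0.94 and -0.92 [-1.40, -0.46], and the protease CAPN3 was at -0.23.

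**Figure D5:**
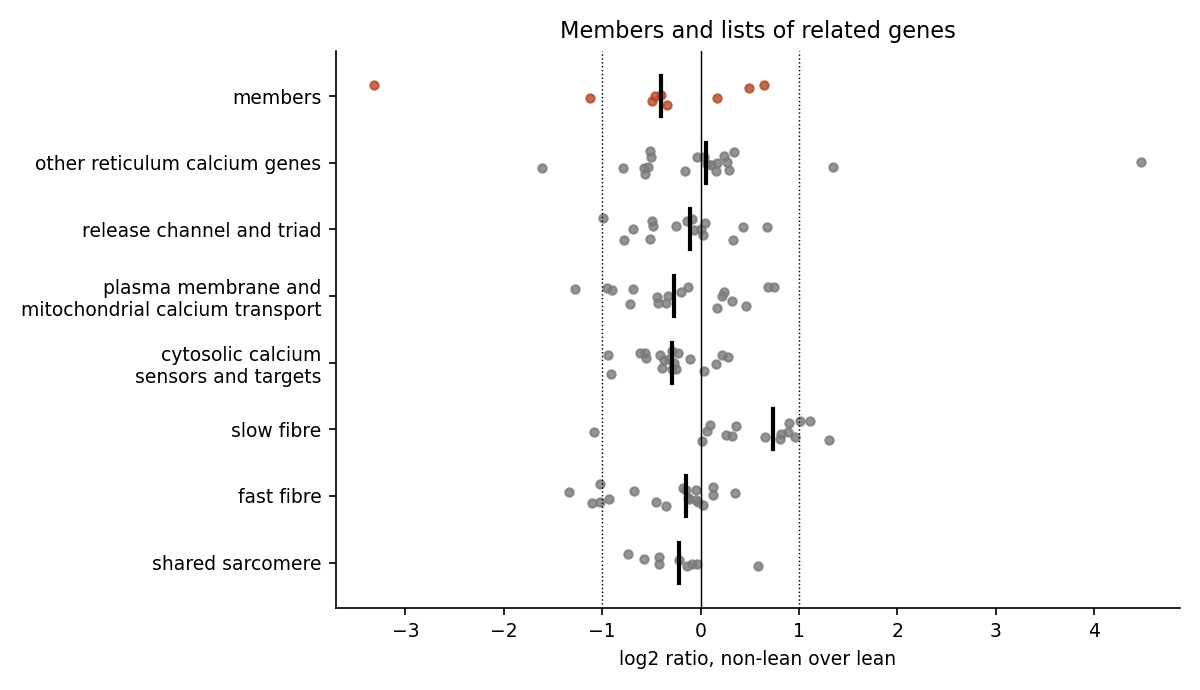
Log2 ratio (non-lean over lean) of the 9 members and of tested genes of 7 related lists, 1 point a gene, with the median as a black bar and dotted lines at 2-fold. The members spread from -3.32 to 0.65 around a median of -0.40, the slow fibre genes centre on 0.73 and the shared sarcomere genes on -0.22, a median that is 0.15 with sarcomere scaling.

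Slow and fast fibre genes differed beside the pumps. Slow fibre genes had a median of 0.73, with TNNT1 and MYL6B at 1.11 and 1.31, MB at 0.80, MYBPC1 at 0.01, and ANKRD2 lowest at -1.09. Fast fibre genes had a median of -0.14, with 15 of 19 intervals below 0 and 3 above. They ran from MYH4 at -1.34 and TPM1 at -1.11 to MYL11 at 0.13 and MYLK2 at 0.35, with the abundant MYH1 at -0.93. The median of the fast fibre genes was 0.23 with sarcomere scaling. MYH1 and MYH4 were matched from placeholder symbols, and division of reads between them was not tested. Shared sarcomere genes had a median of -0.22, with NEB and CKM at -0.74 and -0.57, ACTA1 at -0.42, ACTN2 at -0.03 and TCAP at 0.59. ATP2A1, SLN, SRL and CASQ1, at -0.49 to -0.34, lay within the span of those sarcomere genes, -0.74 to 0.59. That span is wide, and HRC at 0.16 and TRDN at 0.49 lay within it too.

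Markers of other cells in muscle also differed, and their part in the values of the members was not tested. Summed levels over 8 fibroblast genes were 490 CPM in the non-lean and 1089 CPM in the lean library, with 7 of 8 intervals below 0. Summed levels over 8 macrophage genes were 34.5 CPM in the non-lean and 114 CPM in the lean library. Over 7 adipocyte genes the summed level was 447 CPM in the non-lean and 471 CPM in the lean library, most of it from PLIN4. Of the 6 tested, 3 were called lower, beside 7.16% of all tested genes. For these 6, 4 intervals lay below 0 and 2 above, and the median log2 ratio was -1.78. ADIPOQ had 3 counts in the non-lean and 46 in the lean library, PLIN1 had 23 and 166, and CIDEC had 13 and 96 in the non-lean and lean libraries. Endothelial genes summed to 232 CPM in the non-lean and 294 CPM in the lean library. Smooth muscle and pericyte genes, whose cells use ATP2A2, summed to 343 CPM in the non-lean and 337 CPM in the lean library, with 2 of 9 intervals above 0 and 3 below. Satellite cell genes summed to 20.9 CPM in the non-lean and 45.3 CPM in the lean library, and Schwann and nerve genes to 51.1 and 100.3 CPM in the non-lean and lean libraries.

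For each member, the nearest ratio was looked up among tested genes of like level outside the group, leaving out placeholder symbols. Over the 2 libraries, many genes match by a single ratio. The nearest to CASQ2 was MICAL2, with 108 counts in the non-lean and 1125 in the lean library, at -3.19, a distance of 0.13. Nearest to SLN was KLHL41 at -0.49, to PVALB PRKAB2 at -1.13, to ATP2A1 GAPDH at -0.49, to CASQ1 TPI1 at -0.37, to ATP2A2 RPS2 at 0.59, to TRDN PDLIM3 at 0.44, to HRC CNBP at 0.16 and to SRL FEM1A at -0.41. In the reference gene order ATP2A1 overlaps RABEP2, which had 474 counts in the non-lean and 602 in the lean library, few beside those of ATP2A1.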

How the data were processed

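Polyadenylated RNA of 1 non-lean and 1 lean gastrocnemius sample was sequenced on a BGISEQ-500 instrument, per the labels' protocols, which name no strand-marking step. The authors deposited expected counts, estimated read counts per RefSeq transcript, without normalisation. Per the submitters' processing notes, RSEM 1.3.3, STAR 2.7.8a and Trim Galore 0.6.6 were used, with no role stated. No genome build is named there.

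The 76183 transcript values of each file were summed per gene symbol and rounded to whole numbers. Among the symbols, 24 had become dates and were resolved by transcript accession, and list members with placeholder or older symbols were matched by RefSeq gene number or transcript (table of assembly T2T-MFA8v1.1) or by 2 older names. MYH7 and RCN2 were not matched and are not analysed here. Scaling used the TMM method (trimmed mean of M-values) of edgeR 4.0.16 in R 4.3.3, with factors of 1.05 for the non-lean and 0.952 for the lean library. Tested genes had a mean of at least 1 scaled CPM, where 1 count is 0.0748 CPM in the non-lean and 0.0657 CPM in the lean library. Log2 ratios used a prior count of 0.5. Intervals are exact 95% Clopper-Pearson intervals of the binomial split or share, and Woolf intervals for a ratio between members. They cover counting error only, since each group has 1 library. PCR copies were not separated by molecular identifiers, so even counting error may be understated. A gene was called when at least 2-fold apart with an interval excluding 0, and no p-value was computed. The calculation was tested on simulated counts that held counting error only. Spread between animals was not simulated, so that test could not check the calls against it. Python 3.11.15 with numpy 2.4.6, pandas 2.3.3, scipy 1.17.1 and matplotlib 3.10.9 was used.

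The members and lists were chosen with earlier results of these data known. The text names all members, the 2 highest, 2 lowest and most abundant tested genes of the calcium and fibre lists, PLN, MRLN, STRIT1, RYR1 and CALR, and for each member the gene of like level with the nearest ratio. The highest values of the list of cytosolic calcium sensors are not reported here. ATP2A3, the heart and adipocyte genes and the genes beside CASQ2 and ATP2A1 were named after their values were seen. Other scalings, filters, prior counts, thresholds and the leading transcript models were tried as alternatives.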

Additional observations from a re-analysis of the deposited data

How the results depend on the processing

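With total counts 1 member was called lower and the member median was -0.26, as PVALB missed 2-fold. With upper quartile scaling the median was -0.36. Scaling to shared sarcomere genes gave 1742 tested genes called higher and 472 lower, 1 member higher (ATP2A2) and 1 lower (CASQ2), a member median of -0.022, 7 of 7 related lists with a median above 0 in place of 2, and CASQ1 at 0.037. A mean of at least 5 CPM left 231 genes called higher and 485 lower, since fewer genes were tested, and no filter gave 1082 higher. Leading transcript models alone gave 1 member called higher (HRC) and a median of -0.34. At 1.5-fold, 1629 genes were called higher and 2112 lower, and 1 member, ATP2A2, was called higher. CASQ2 was called lower under each of these alternatives, with ratios from -3.35 to -2.94, and median of ratios scaling and a prior count of 2 moved no call of a member. The pump share without ATP2A3 was 12.6% in the non-lean and 6.27% in the lean library. Alternatives by coding length and counts per kb were not run, as no lengths were used here. No paired analysis was possible because each group has 1 library. In the non-lean library the CASQ2 value rests on 61 counts.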
